A study of Mus musculus with 12 samples.

Results

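The apical turn of the mouse cochlea was compared between postnatal day 8 (P8) and postnatal day 0 (P0, the day of birth). Of the 12 arrays of the series, the 4 labelled as apical cochlea were used for this comparison, 2 at P8 and 2 at P0, and the 8 arrays of the basal and middle turns served to measure the spread between replicates and to set the apical change beside that of the other turns. Each array held RNA from 1 pool of cochlear pieces of wild-type C57BL/6 pups, with no treatment. The sex of the pups is not given in the sources used here. The temporal bones of many pups were dissected for each age, the bony otic capsule was taken off, and what remained, which included the sensory organ of Corti, the limbus and the lateral wall, was cut into 3 pieces of equal length, so that the apex, middle and base of 1 age and 1 dissection set came from the same animals. The whole dissection was done in 2 sets, marked by the year in the titles. The p-values below rest on the spread left between arrays once the set difference is taken out. Much of that spread lies between pieces cut from the same animals. It is not the spread between single animals, and each age had only 2 sets of animals. Expression is given as log2 signal of an Affymetrix Mouse Gene 1.0 ST array, so a difference of 1 is a doubling. The number of arrays limits the precision.

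The cochlea of the mouse is still immature at birth. Hearing starts in the course of the second postnatal week, after the base-to-apex wave of hair cell differentiation, the growth of the tectorial membrane, the refinement of the spiral ganglion innervation and the build-up of the potassium-rich endolymph by the stria vascularis. The apical turn, which encodes low frequencies, is the last to mature. P8 therefore falls within this period and P0 before most of it.

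After genes were reduced to 1 array entry each, 16306 of 19938 genes passed log2 6 in the mean of any of the 6 groups and were tested. A gene was called changed at a Benjamini-Hochberg adjusted p under 0.05 (limma, dissection set as a block), a fold of at least 2 and a mean above log2 6 in P8 or P0 apex. By this rule 363 genes were higher at P8 (2.23% of those tested) and 286 were lower (1.75%), so that 55.9% of the called genes were higher. All 649 called genes differed in the same direction in both dissection sets, and the P8 and P0 arrays overlapped for 14 of them. Arrays that lie apart are therefore usual among called genes and add no support to a call. Over all tested genes the P8 and P0 arrays did not overlap for 43.5%, the median difference was −0.01, and 67 of the called genes differed by 4-fold or more. Where the lower of the 2 group means was under log2 6, the difference is given as a minimum, which applied to 34 of the genes that rose and 39 of those that fell.

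**Figure D1:**
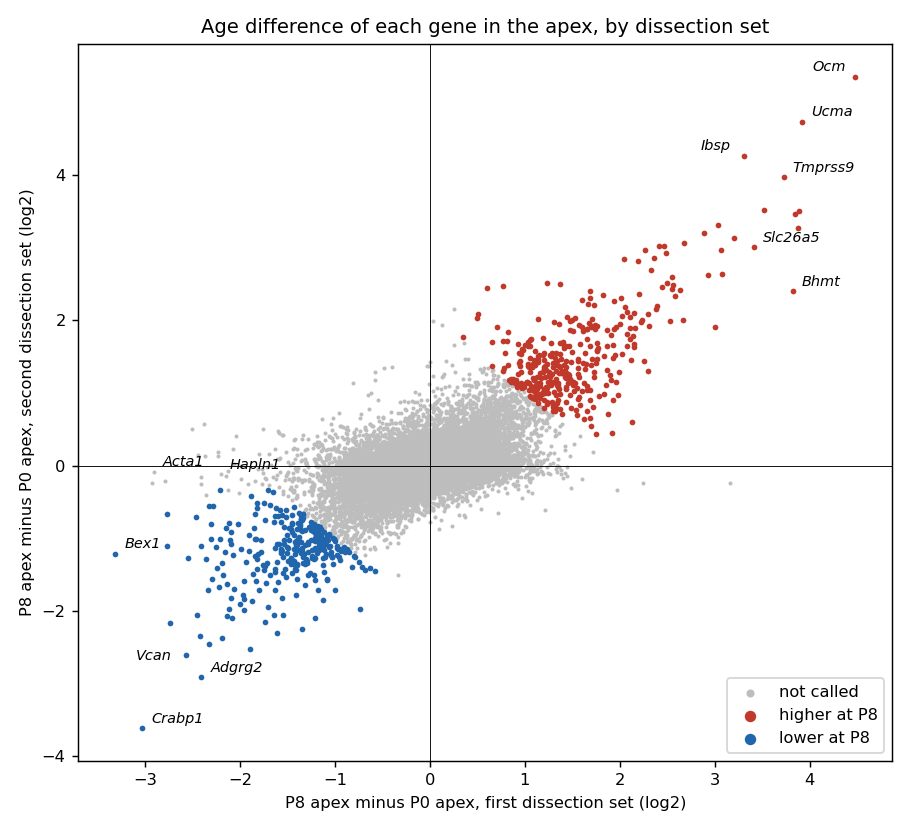
Log2 difference of P8 apex minus P0 apex for each of 16306 tested genes, in the first dissection set (x axis) and the second (y axis). Red points are the 363 genes called higher at P8, blue points the 286 called lower, and grey points the others. All called genes lie in the upper right or lower left, while Acta1 and Hapln1 lie far to the left in the first set and near 0 in the second.

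Markers of the labelled tissue had high signals on all 4 arrays. Tectb (a structural protein of the tectorial membrane) had signals of 13.04 and 13.21 on the P8 arrays, against 12.15 and 12.48 on the P0 arrays, and Coch (cochlin, of spiral ligament and limbus) had 11.82 and 11.08 at P8 against 11.38 and 10.79 at P0. The first-set P0 apex array stood apart in skeletal muscle genes, 16 of which averaged 6.77 and 6.83 on the P8 arrays, against 7.66 and 6.73 on the P0 arrays of the first and second set. Acta1 (skeletal muscle actin) had 7.05 and 7.38 at P8, against 9.96 and 7.47 at P0. None of the 16 muscle genes passed the test. Without that array 390 genes were higher and 225 lower, and 526 of the 649 calls were kept. Besides the genes for which this is stated below, the calls of Bex1 (−1.83), Lin28b (−0.84), Plagl1 (−0.80), Sema3c (−0.95), Tecta (−0.98), Cldn19 (1.27) and Rgs5 (1.21) were lost, the value in brackets being the difference without that array, and so was that of Pmp22 (adjusted p = 0.056 in limma).

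The group with the most falls was that of the cell division genes. Of 32 tested genes of mitosis, 26 fell and none rose, with a median difference of −1.32. The arrays of the 2 ages did not overlap for 31 of them, beside 43.5% of all tested genes. Bub1 (a kinase of the spindle checkpoint) had signals of 5.79 and 5.86 on the P8 arrays, against 7.97 and 8.23 on the P0 arrays, and fell by at least 2.28 (SE 0.15, adjusted p = 6.02e-06). Kif11, the motor that pushes spindle poles apart, had 6.96 and 6.67 at P8 against 8.70 and 8.82 at P0, and fell by 1.94 ± 0.18 (SE). Top2a (topoisomerase, which untangles replicated chromosomes) had 7.25 and 7.09 at P8 against 9.23 and 8.87 at P0, and fell by 1.88 ± 0.11, or by 1.02 in the mean of its entries. Mki67, the Ki-67 proliferation antigen, had 7.37 and 7.43 at P8 against 9.08 and 9.38 at P0, and fell by 1.83 ± 0.14. For these 4 genes, which were chosen for their large falls, every P8 array was lower than every P0 array by more than 1 log2 unit. The cyclins Ccnb2 (−1.71) and Ccna2 (−1.67), their partner kinase Cdk1 (−1.67) and the mitotic kinase Plk1 (−1.63) moved with them. In RNA from a pooled turn, fewer dividing cells and less of these transcripts per cell cannot be told apart. Without the block for dissection set 16 of the 32 passed, and with each array left out in turn between 22 and 29 did.

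The promoters of the 4 called mitosis genes with the largest falls are printed because their start regions share short motifs. Windows of 300 bases, from 250 before to 50 after the annotated start, were taken from RefSeq on GRCm38.p6 and read 5′ to 3′ along the gene. Capitals mark the cell cycle genes homology region, searched as TTTGAA or TTCGAA, and the CCAAT box, each on either strand. The first element is a binding site of the complex that represses cell cycle genes in resting cells, and the second is bound by NF-Y.
Bub1 promoter, chr2:127831810-127832109, minus strand: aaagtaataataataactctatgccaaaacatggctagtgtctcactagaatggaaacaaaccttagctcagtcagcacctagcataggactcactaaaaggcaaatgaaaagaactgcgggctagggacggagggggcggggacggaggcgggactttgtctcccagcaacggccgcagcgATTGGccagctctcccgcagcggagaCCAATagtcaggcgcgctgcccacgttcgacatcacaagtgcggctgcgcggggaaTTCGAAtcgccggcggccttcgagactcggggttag
Kif11 promoter, chr19:37376132-37376431, plus strand: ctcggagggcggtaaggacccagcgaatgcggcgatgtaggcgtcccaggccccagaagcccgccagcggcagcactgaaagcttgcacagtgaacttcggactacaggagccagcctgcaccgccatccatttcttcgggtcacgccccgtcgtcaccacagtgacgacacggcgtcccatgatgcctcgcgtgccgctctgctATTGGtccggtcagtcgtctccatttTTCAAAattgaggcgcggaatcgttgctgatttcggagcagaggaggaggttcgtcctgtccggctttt
Top2a promoter, chr11:99024140-99024439, minus strand: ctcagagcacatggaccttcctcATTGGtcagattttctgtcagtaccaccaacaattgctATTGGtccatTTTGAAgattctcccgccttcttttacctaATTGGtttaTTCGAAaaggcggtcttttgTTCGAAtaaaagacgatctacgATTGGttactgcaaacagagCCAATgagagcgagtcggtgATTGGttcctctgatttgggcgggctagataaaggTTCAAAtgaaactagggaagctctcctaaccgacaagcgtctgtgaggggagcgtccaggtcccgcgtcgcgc
Mki67 promoter, chr7:135716330-135716629, minus strand: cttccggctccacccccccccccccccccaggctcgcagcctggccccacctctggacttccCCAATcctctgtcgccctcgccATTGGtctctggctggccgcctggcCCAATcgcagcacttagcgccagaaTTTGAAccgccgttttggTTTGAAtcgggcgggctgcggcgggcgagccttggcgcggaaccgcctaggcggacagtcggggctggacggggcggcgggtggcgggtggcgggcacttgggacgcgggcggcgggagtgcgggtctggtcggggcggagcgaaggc

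These letters occurred in most promoters of the mitosis group. A promoter was found for 27 of the 32 genes, and of their 29 promoters 23 (79.3%) held the homology region, 22 (75.9%) a CCAAT box and 21 (72.4%) both, each motif being counted whether or not it overlapped the other. Among all 32851 promoters listed, 19.2% held the first, 37.4% the second and 7.53% both. The 25 promoters of 20 DNA replication genes held the homology region in 5 cases (20.0%) and a CCAAT box in 17 (68.0%). A match of letters describes the sequence and is not a measurement of binding.

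Genes of DNA replication fell too. Of 24 tested, 7 fell by 2-fold or more and none rose (median −0.77). With no fold asked for, 22 had an adjusted p under 0.05 in limma and a lower value at P8. Over all 16306 tested genes 5690 had an unadjusted p under 0.05 in limma, in either direction, and no more than these passed after adjustment. Mcm6, a subunit of the replicative helicase, had 7.76 and 7.41 at P8 against 9.26 and 8.54 at P0 and fell by 1.31 ± 0.16. Uhrf1, which copies DNA methylation onto the new strand, fell by 1.28 ± 0.13, and Prim1, the primase subunit, by 1.24 ± 0.15. Gins1, of the helicase complex, reached 5.43 and 5.60 at P8 against 7.02 and 6.69 at P0, and fell by at least 1.34. None of 9 inhibitors of cyclin-dependent kinases and D cyclins passed the test. Ccnd1 (cyclin D1, of the entry into the cell cycle) had 9.83 and 10.34 at P8 and 10.36 and 10.52 at P0 (−0.36 ± 0.12, adjusted p = 0.0629).

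Genes of fetal growth fell as well. Of 17 tested, 8 fell and none rose (median −0.77). Igf2bp3, an RNA-binding protein of fetal tissues, had 6.70 and 7.01 at P8 against 8.80 and 8.83 at P0, and fell by 1.96 ± 0.13. Its relative Igf2bp1 (−1.17), Lin28b (−1.15; a repressor of let-7 miRNA processing) and the imprinted genes Mest (−1.37), Peg3 (−1.31), Plagl1 (−1.17) and Grb10 (−1.04) fell too. Sox11, a transcription factor of immature neurons and other progenitors, had 9.15 and 9.34 at P8 and 10.52 and 10.50 at P0 (−1.27 ± 0.12). In each of these 8 genes both P8 arrays were below both P0 arrays, as in most genes called lower.

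The array also held entries for miRNA hairpins. Of 147 such entries tested, 1 was higher and 4 were lower at P8 (median 0.06), and 3 of the 4 lower ones lay in a single cluster on chromosome 14, the miR-17-92 cluster, which is known to promote proliferation. The cluster was picked out after its values were seen. Its 6 hairpins span 836 bases on GRCm38.p6, and the mature sequences from RefSeq are printed to show that they fall into 4 seeds, the capitals marking bases 2 to 8.
mmu-miR-17-5p, chr14:115043684-115043706, plus strand: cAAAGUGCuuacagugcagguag
mmu-miR-18a-5p, chr14:115043867-115043889, plus strand: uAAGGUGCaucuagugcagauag
mmu-miR-19a-3p, chr14:115044048-115044070, plus strand: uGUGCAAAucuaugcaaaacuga
mmu-miR-20a-5p, chr14:115044183-115044205, plus strand: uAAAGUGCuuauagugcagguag
mmu-miR-19b-3p, chr14:115044358-115044380, plus strand: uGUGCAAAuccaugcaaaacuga
mmu-miR-92a-3p, chr14:115044476-115044496, plus strand: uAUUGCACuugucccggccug

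The seed AAAGUGC is shared by miR-17 and miR-20a and GUGCAAA by miR-19a and miR-19b. The Mir20a entry had signals of 6.08 and 4.80 on the P8 arrays against 8.19 and 5.82 on the P0 arrays, and fell by at least 1.56 (SE 0.25, adjusted p = 0.00163). The Mir19a entry had 4.97 and 4.35 at P8 against 6.88 and 5.31 at P0, and fell by at least 1.43 (SE 0.18). Mir18 had 6.85 and 6.49 at P8 against 8.23 and 7.13 at P0 and fell by 1.02 ± 0.17. Each was lower at P8 within each dissection set, but the first set was brighter throughout, so that the ages overlapped for Mir20a. None of these 3 was called without the set block or without the first-set P0 apex array, where the differences were −1.15 for Mir20a, −1.14 for Mir19a and −0.73 for Mir18. Mir19b-1 differed by −0.92 ± 0.15, under 2-fold, Mir17 by −0.20 ± 0.18, and the host transcript Mir17hg by −0.19 ± 0.24. The Mir92-1 entry did not reach the level for testing. A hairpin entry measures the primary or precursor RNA and not the mature miRNA.

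Neuronal growth genes fell in the apex. Of 18 genes of growing neurites and the neuronal cytoskeleton 9 fell and none rose (median −1.19). The P8 and P0 arrays were apart for all 18, beside 43.5% of all tested genes. Dcx, the doublecortin of migrating and growing neurons, had 6.24 and 6.29 at P8 against 8.56 and 8.75 at P0, and fell by 2.39 ± 0.20. Stmn2, which destabilises growth cone microtubules, had 7.81 and 7.92 at P8 against 9.71 and 10.43 at P0 (−2.21 ± 0.39), and Nefm, a neurofilament subunit, had 7.25 and 7.34 at P8 against 9.58 and 9.06 at P0 (−2.02 ± 0.28). Gap43, of the growth cone membrane, fell by 1.57 ± 0.26. The Bex1 entry was uneven, with 4.75 and 6.78 at P8 and 8.07 and 7.99 at P0. Without the set block 2 of the 18 passed, and without the first-set P0 apex array 6 did.

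Among 15 genes of transmitter release and excitability 2 fell and none rose. Scn9a (the sodium channel Nav1.7) had 5.58 and 6.03 at P8 against 8.03 and 8.08 at P0 (−2.25 ± 0.16, a minimum), and Scn3a, the neonatal sodium channel Nav1.3, fell by at least 1.02. The ATP-gated channel P2rx3, present in spiral ganglion neurons before hearing, had 6.72 and 6.87 at P8 against 9.14 and 9.21 at P0 (−2.38 ± 0.23, adjusted p = 5.79e-05). P2rx3 has 2 entries on the array, and their mean fell by 1.29. The calcium-dependent kinase Camk4 had 6.28 and 6.15 at P8 against 8.39 and 8.12 at P0 (−2.04 ± 0.23). Axon guidance genes were split, with 3 of 24 lower and 1 higher. The repellents Sema3e (−1.51 ± 0.15) and Sema3c (−1.10 ± 0.14) and the receptor Epha4 (−1.06 ± 0.12) fell, and the netrin Ntn4 had 9.11 and 8.88 at P8 against 7.37 and 6.99 at P0, a rise of 1.81 ± 0.12.

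Schwann cell genes moved the other way. Of 17 genes of Schwann cells and myelin 6 rose and none fell (median 0.69). Mal, a myelin proteolipid, had 10.24 and 10.01 at P8 against 8.33 and 8.22 at P0, a rise of 1.85 ± 0.16. Pmp22, of compact peripheral myelin, had 12.62 and 11.88 at P8 and 10.63 and 10.59 at P0 (1.64 ± 0.32), and Gjc3, the connexin of myelinating glia, rose by 1.44 ± 0.15. Mbp, the myelin basic protein, rose by 1.01 ± 0.19 and Cldn19, of Schwann cell tight junctions, by 1.54 ± 0.41. For each of these 5 genes both P8 arrays were above both P0 arrays, as for most genes called higher. Without the set block 3 of the 17 passed, and likewise 3 without the first-set P0 apex array.

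Among hair cell genes the largest rises were those of the outer hair cell. Of 15 genes of the hair cell motor, currents and calcium handling 5 rose and none fell (median 0.79). Ocm (oncomodulin, the calcium buffer of outer hair cells) had the largest rise of all called genes, with signals of 10.62 and 11.24 on the P8 arrays, against 6.14 and 5.89 on the P0 arrays, at least 4.92 ± 0.30 higher or 30.2-fold (adjusted p = 4.32e-06), as its P0 arrays lay at the log2 6 limit. Slc26a5 (prestin, the motor of outer hair cell electromotility) had 9.60 and 9.76 at P8 against 6.19 and 6.75 at P0, and rose by 3.21 ± 0.18 or 9.25-fold. For both genes the arrays of the 2 ages were far apart. The potassium channel Kcna10 had 8.78 and 9.43 at P8 against 6.78 and 7.13 at P0 (2.15 ± 0.15), the inward rectifier Kcnj13 had 10.65 and 11.21 at P8 against 8.71 and 9.32 at P0 (1.91 ± 0.19), and Lmod3, which nucleates actin filaments, rose by 1.48 ± 0.17. Kcnn2 (SK2, coupled to the efferent receptor) differed by 0.92 ± 0.13 and Chrna10, a subunit of that receptor, by 0.79 ± 0.17, both under 2-fold.

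**Figure D2:**
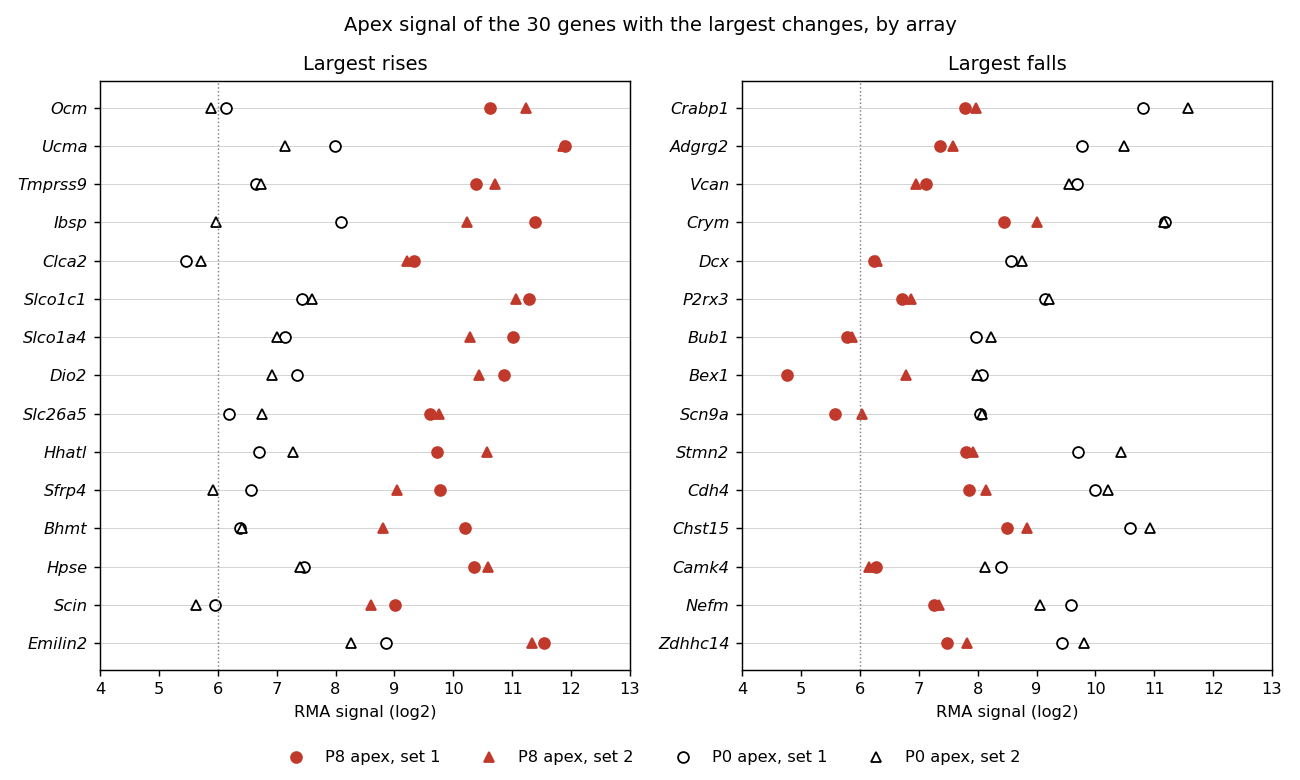
Log2 signal of the 15 genes with the largest rise and the 15 with the largest fall in the apex, with each point 1 array. P8 is in filled red and P0 in open black, the first dissection set as circles and the second as triangles, and the dotted line is log2 6. The P8 and P0 arrays of all 30 genes, which were chosen for their large differences, are apart. Ocm is at 10.62 and 11.24 at P8 and at 6.14 and 5.89 at P0.

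The genes of the hair bundle, the stack of stereocilia that opens the transduction channel, showed no common direction. Of 30 tested, 1 rose and 1 fell (median 0.14). Tmc1, a pore-forming subunit of the mature transduction channel, had 8.31 and 7.97 at P8 against 6.92 and 6.67 at P0, a rise of 1.35 ± 0.15. Pcdh15, a protein of the tip link, had 7.44 and 7.88 at P8 against 8.44 and 8.92 at P0, and fell by 1.02 ± 0.12. The fall of Pcdh15 lay at the 2-fold limit. It was called in 18 of 24 alternatives and not, for example, with arrays centred (−0.94), after quantile normalisation (−0.98) or with the mean of its entries (−0.49). Ptprq (of the stereocilia base, 0.99 ± 0.16) and Strc (stereocilin, 0.83 ± 0.13) were just under 2-fold, as was Pls1, a plastin that bundles stereocilia actin (−0.88 ± 0.12). Of 11 genes of the ribbon synapse none passed, and otoferlin, Otof, the calcium sensor of release, differed by 0.87 ± 0.12.

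Among 12 regulators of hair cell transcription and RNA processing 1 rose and 1 fell. Atoh1, the transcription factor that specifies hair cells, had 6.33 and 6.53 at P8 against 8.21 and 8.39 at P0, and fell by 1.87 ± 0.14 (adjusted p = 1.22e-05). Rbm24, an RNA-binding protein that regulates splicing in hair cells, had 9.49 and 9.54 at P8 against 8.44 and 8.40 at P0, a rise of 1.09 ± 0.10. Among 27 prosensory and supporting cell genes Gjb6 (connexin 30, of the supporting cell gap junctions) had 11.09 and 10.79 at P8 against 8.99 and 9.04 at P0 and rose by 1.93 ± 0.18, while Prox1, a transcription factor of pillar and Deiters cells, had 7.53 and 7.66 at P8 against 8.67 and 8.74 at P0 and fell by 1.11 ± 0.16. The other 25 did not pass. The partner connexin Gjb2 differed by 0.73 ± 0.11 and the Notch ligand Jag1 by −0.58 ± 0.13.

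Genes of the tectorial membrane and limbus were split. Of 8 tested, 1 fell and none rose. Tecta (alpha-tectorin, the main noncollagenous protein of the tectorial membrane) had 11.26 and 11.55 at P8 against 12.38 and 12.46 at P0, and fell by 1.02 ± 0.11. Its partner Tectb differed by 0.81 ± 0.14 and Otoa (otoancorin, which anchors the membrane to the limbus) by 0.42 ± 0.12, both higher at P8 by less than 2-fold.

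Potassium and pH handling genes of the lateral wall rose. Of 11 genes of the marginal cells of the stria vascularis, which secrete potassium into the endolymph, 4 rose and none fell (median 0.58). Kcne1 and Kcnq1, the subunits of the channel through which potassium leaves these cells, had 9.50 and 10.65 (Kcne1) and 10.21 and 10.07 (Kcnq1) at P8, against 8.20 and 9.30 (Kcne1) and 8.84 and 9.09 (Kcnq1) at P0, rises of 1.32 ± 0.12 for Kcne1 and 1.17 ± 0.19 for Kcnq1. Atp1b2, a sodium pump subunit, rose by 1.74 ± 0.18 and Atp13a5, a cation-transporting ATPase, by 1.75 ± 0.15. Bsnd, the barttin subunit of the chloride channels, differed by 0.83 ± 0.15. The second set was brighter for Kcne1 at both ages, and the ages did not overlap. Without the set block Kcne1 was not called (adjusted p = 0.369 in limma).

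Of 14 genes of the intermediate cells, the melanocytes of the stria, 6 rose and none fell (median 0.77). Kcnj10 (Kir4.1, which generates the endocochlear potential) had 8.64 and 9.80 at P8 against 6.96 and 7.40 at P0, and rose by 2.04 ± 0.22. The melanin enzymes Dct (1.31 ± 0.11) and Tyr (1.10 ± 0.15), the melanosome transporter Slc45a2 (1.40 ± 0.18), the melanocyte transcription factor Mitf (1.14 ± 0.13) and the receptor Met (1.31 ± 0.19) rose with it. Tyrp1, another melanin enzyme, had the other sign, with 5.64 and 5.81 at P8 and 6.59 and 6.69 at P0 (−0.92 ± 0.12, a minimum). Without the set block 1 of the 14 passed. Of 13 genes of basal cells and tight junctions 1 fell, Cldn6, a claudin of fetal epithelia, with 8.38 and 9.64 at P8 and 10.57 and 10.98 at P0 (−1.77 ± 0.23).

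The outer sulcus group, which holds carriers of acid, potassium and water, had 6 of 15 higher and 1 lower (median 0.76). Kcnj16, a potassium channel subunit that pairs with Kcnj10, had 8.75 and 9.25 at P8 against 6.42 and 6.56 at P0, a rise of 2.51 ± 0.14. The proton pump subunit Atp6v0a4 had 8.71 and 9.08 at P8 against 6.22 and 6.57 at P0 (2.50 ± 0.16), and another subunit, Atp6v1c2, rose by 1.70 ± 0.16. The membrane-bound carbonic anhydrases Car14 (1.73 ± 0.13) and Car12 (1.32 ± 0.19) and the water channel Aqp4 (1.45 ± 0.14) also rose. The pump subunit Atp6v1b1 had 6.93 and 7.16 at P8 against 8.06 and 8.21 at P0 and fell by 1.09 ± 0.14. Of 15 spiral ligament genes 3 rose and none fell (median 0.63). Otos, the otospiralin of fibrocytes, had 8.46 and 8.97 at P8 against 5.80 and 6.98 at P0 (2.33 ± 0.23), and the bicarbonate transporter Slc4a10 rose by 1.70 ± 0.23. Emilin2, an elastin-associated glycoprotein, had 11.54 and 11.33 at P8 and 8.86 and 8.26 at P0, a rise of 2.87 ± 0.12. The paper cites its build-up after birth around collagen fibres of the basilar membrane, so its rise need not belong to the ligament. It is counted in the matrix group as well.

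**Figure D3:**
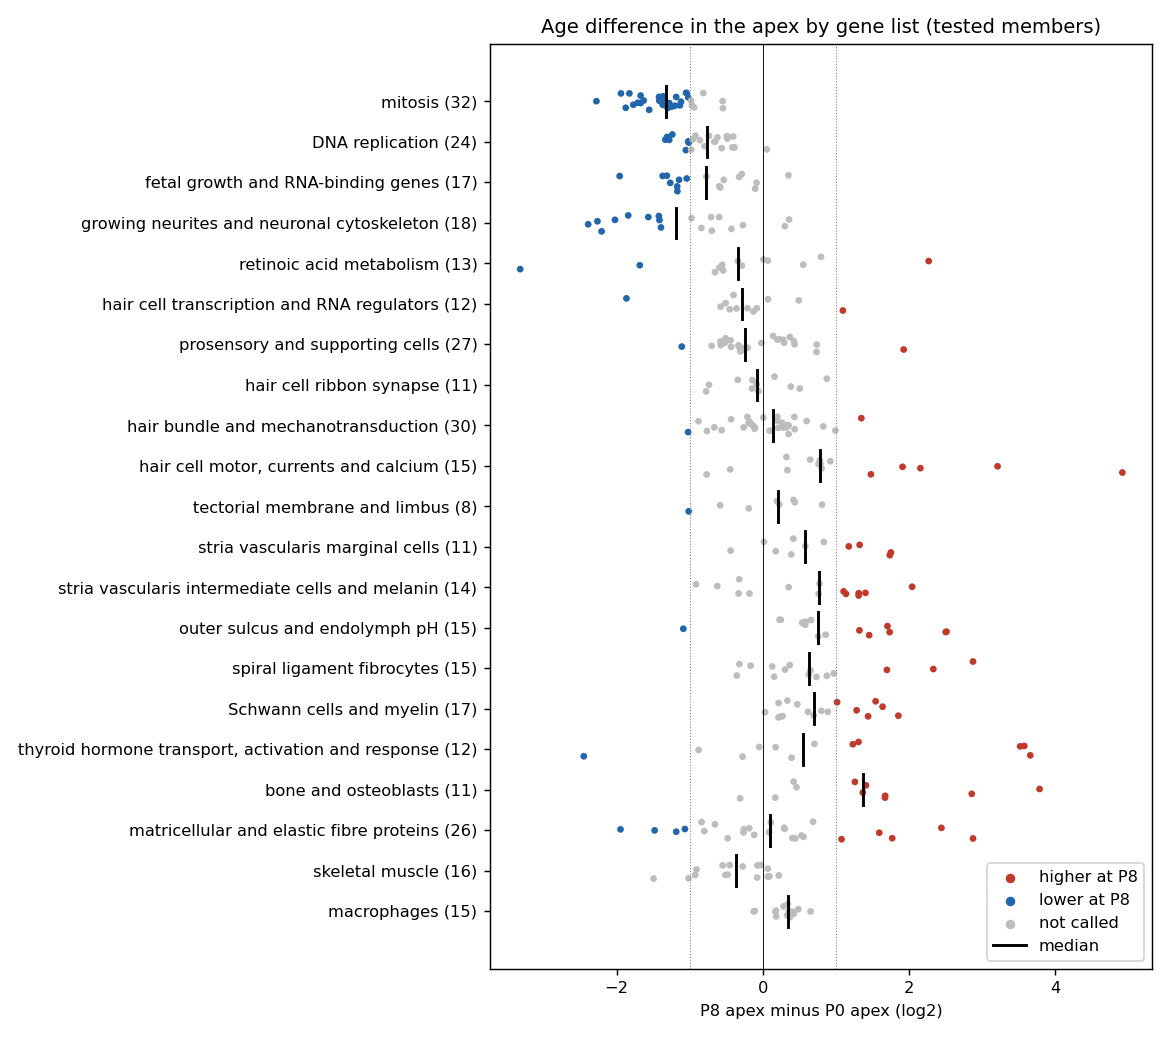
Log2 difference of P8 apex minus P0 apex for the tested members of the gene groups, with 1 point a gene, red called higher at P8, blue called lower and grey neither. The black bar is the group median and the dotted lines are a 2-fold difference. Most of the 32 mitosis genes lie below −1 (median −1.32), and the bone group has the highest median drawn (1.37).

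Thyroid hormone, which is needed for the onset of hearing, has its transport and activation genes among the largest rises. Of 12 genes of this pathway 5 rose and 1 fell (median 0.55). Slco1c1, a thyroxine transporter, had 11.28 and 11.07 at P8 against 7.43 and 7.60 at P0, a rise of 3.66 ± 0.20 or 12.6-fold. Its relative Slco1a4 had 11.01 and 10.28 at P8 against 7.14 and 7.01 at P0 (3.58 ± 0.26), and Dio2, the deiodinase that turns thyroxine into the active hormone, had 10.87 and 10.43 at P8 against 7.34 and 6.92 at P0 (3.52 ± 0.19). The thyroid hormone responsive genes Klf9 (1.31 ± 0.24) and Hr (1.23 ± 0.14) rose. Crym, the mu-crystallin that binds the hormone in the cytosol, had 8.44 and 9.01 at P8 against 11.18 and 11.17 at P0 and fell by 2.45 ± 0.18. For all 6 genes the arrays of the 2 ages were apart, as for most called genes. Slco1c1 and Slco1a4 are also genes of the vessel barrier, and Rgs5, of pericytes, was the third of 17 vessel genes to rise (1.29 ± 0.26).

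Retinoic acid genes changed in both directions, with 1 of 13 higher and 2 lower. Crabp1, a cytosolic binding protein of retinoic acid, had the largest fall of all called genes, with 7.78 and 7.96 at P8 against 10.81 and 11.58 at P0 (−3.32 ± 0.20, or 0.100 of the P0 signal, adjusted p = 4.32e-06). Crabp2, of the same family, had 7.87 and 8.79 at P8 against 10.12 and 9.91 at P0 (−1.68 ± 0.26). Aldh1a1, an enzyme that makes retinoic acid, had 11.93 and 11.25 at P8 against 9.55 and 9.09 at P0 and rose by 2.27 ± 0.17.

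Of 28 Wnt pathway genes 3 rose and 1 fell. Sfrp4, a secreted Wnt inhibitor, had 9.77 and 9.05 at P8 against 6.57 and 5.92 at P0 (3.17 ± 0.13, adjusted p = 7.1e-07). The ligand Wnt2b rose by 1.65 ± 0.18 and the extracellular Wnt inactivator Notum by 1.53 ± 0.12, while Rspo2, which strengthens Wnt signals, had 8.06 and 7.64 at P8 against 9.40 and 8.81 at P0 and fell by 1.26 ± 0.11. In the BMP and TGF-beta pathway Bmp6 was the single gene of 23 to pass, with 9.59 and 10.54 at P8 against 7.76 and 8.19 at P0 (2.09 ± 0.14), and in the FGF pathway Fgf1 was the single gene of 20 (1.35 ± 0.16). Fgf10, a ligand of the greater epithelial ridge, had 8.41 and 9.25 at P8 against 9.43 and 10.07 at P0 (−0.92 ± 0.26), just under 2-fold. Of 15 complement and innate defence genes 2 rose, among them C2, with 8.02 and 8.56 at P8 and 6.71 and 6.58 at P0 (1.64 ± 0.16), and Lgals3bp, a secreted glycoprotein (1.31 ± 0.21). Of 17 antioxidant enzymes 1 rose, the copper oxidase ceruloplasmin, Cp (1.13 ± 0.18).

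Extracellular matrix genes changed in both directions. Of 26 matricellular and elastic fibre genes 5 rose and 4 fell. Besides Emilin2, Chad (chondroadherin) had 9.69 and 10.40 at P8 against 7.64 and 7.55 at P0 (2.44 ± 0.25), and Abi3bp (1.77 ± 0.18), Ccn4 (1.59 ± 0.14) and Spon1 (1.08 ± 0.11), all secreted proteins of the matrix, rose. Smoc2, a calcium-binding matrix protein, had 8.05 and 8.10 at P8 against 10.28 and 9.78 at P0 (−1.95 ± 0.15), and periostin, Postn (−1.48 ± 0.16), Tgfbi (−1.19 ± 0.17) and fibrillin 2, Fbn2, of fetal microfibrils (−1.07 ± 0.11), fell. Of 20 basement membrane genes 4 rose and none fell. They were Col4a3 (1.48 ± 0.23) and Col4a4 (1.26 ± 0.23), collagen chains of mature basement membranes, Npnt (nephronectin, 1.38 ± 0.20) and Lama2 (1.05 ± 0.15). Without the set block 2 of the 20 passed. Of 13 small leucine-rich proteoglycans Kera (1.73 ± 0.15) rose beside Chad and Aspn fell (−1.68 ± 0.22), and of 18 fibrillar and beaded collagens Col24a1 rose (1.12 ± 0.19) and Col6a3 fell (−1.19 ± 0.19). Without the first-set P0 apex array neither collagen was called (0.85 for Col24a1 and −0.90 for Col6a3), nor were Col4a3 (0.99) and Col4a4 (0.84). Vcan (versican, a large proteoglycan of immature matrix) had 7.13 and 6.95 at P8 against 9.69 and 9.55 at P0 and fell by 2.58 ± 0.15.

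Bone genes rose in tissue from which the otic capsule had been removed. Of 11 tested, 7 rose and none fell (median 1.37), and all 11 together averaged 8.69 and 8.01 on the P8 arrays, against 7.24 and 6.78 on the P0 arrays. Ibsp (bone sialoprotein) had 11.39 and 10.22 at P8 against 8.08 and 5.96 at P0, a rise of 3.78 ± 0.39. Phex, an endopeptidase of osteoblasts, rose by 2.86 ± 0.23. Alpl, the alkaline phosphatase of mineralising cells, rose by 1.67 ± 0.13, the osteoblast transcription factor Sp7 by 1.41 ± 0.25 and Acp5, of osteoclasts, by 1.26 ± 0.18. In both ages the first set had the higher mean of the bone group. Among 12 cartilage genes Ucma (a matrix protein of cartilage) had 11.90 and 11.87 at P8 against 7.99 and 7.14 at P0, 4.32 ± 0.25 higher or 20.0-fold, Cytl1 rose by 1.36 ± 0.25, and Matn1, of embryonic cartilage, had 7.50 and 7.84 at P8 against 9.81 and 8.64 at P0 (−1.56 ± 0.29). The fall of Matn1 was not called without the first-set P0 apex array, where the difference was −0.94. Hapln1, which links aggrecan to hyaluronan, had 6.49 and 6.27 at P8 and 8.69 and 6.39 at P0, high on the P0 array of the first set alone. The part of bone or cartilage left on the tissue in these values was not tested.

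None of 15 macrophage genes, 6 neutrophil genes, 5 red blood cell genes, 6 vestibular and otoconial genes or 4 neurotrophins and their receptors passed. The macrophage genes averaged 7.84 and 7.98 at P8 against 7.63 and 7.62 at P0, the neutrophil genes 6.45 and 6.36 at P8 against 6.13 and 6.37 at P0, and the red blood cell genes 6.75 and 6.57 at P8 against 6.44 and 6.50 at P0. Csf1r, the receptor that macrophages need, differed by 0.65 ± 0.13, under 2-fold.

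Several of the largest differences lay outside these groups. Tmprss9, a transmembrane serine protease, had 10.38 and 10.70 at P8 against 6.65 and 6.73 at P0 (3.85 ± 0.18 or 14.4-fold). Hhatl, a relative of hedgehog acyltransferase, rose by 3.17 ± 0.19, Bhmt, which remethylates homocysteine, by 3.11 ± 0.33, and heparanase, Hpse, by 3.04 ± 0.18. Clca2, of a family of chloride channel regulators, rose by at least 3.69 and the actin-severing Scin by at least 3.02, since both were under log2 6 at P0. Among the falls, Adgrg2 (an adhesion receptor coupled to G proteins) had 7.36 and 7.58 at P8 against 9.77 and 10.49 at P0 (−2.66 ± 0.24). The cell adhesion molecule Cdh4 (−2.10 ± 0.14), the sulfotransferase Chst15 (−2.09 ± 0.13) and the palmitoyltransferase Zdhhc14 (−1.97 ± 0.12) followed. All of these genes were called under every alternative setting that was run except the adjusted test of the methods. The same held for 27 of the 30 genes with the largest changes, the exceptions being Ibsp, Bex1 and Nefm.

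The change with age in the apex was largely shared by the other turns. Of the 363 genes that rose, 355 differed in the same direction in both middle and base, and 292 were called higher in the middle and 242 in the base. Of the 286 that fell, 284 had the same sign in both, and 164 were called lower in the middle and 124 in the base. The apex had the most genes called lower, 286 against 217 in the middle and 187 in the base. The apical number was smaller without either apex array of the first set and larger without either of the second. Whether the apex leads without single arrays was not tested. The numbers called higher were 363 in the apex, 383 in the middle and 367 in the base.

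The size of the apical change was then set against the mean change of middle and base in each gene. The age change differed between them by 2-fold or more at an adjusted p under 0.05 in 12 of 16306 genes (0.0736%), 11 with a more positive change in the apex and 1 with a more negative one. That fit did not pair the pieces cut from the same animals. With the pool as a fixed block, which pairs them, 28 genes were more positive and 7 more negative, all 12 among them. Tecta differed most clearly, by 1.76 ± 0.14 (adjusted p = 0.00117). Its signal at P8 was 11.26 and 11.55 in the apex, 9.92 and 10.14 in the middle and 8.82 and 8.85 in the base, against 12.38 and 12.46 in the apex, 12.30 and 12.47 in the middle and 11.96 and 12.09 in the base at P0. The fall with age was therefore 1.02 in the apex, 2.36 in the middle and 3.19 in the base. The order of the turns was the same in both sets at P8, while the 6 P0 arrays lay between 11.96 and 12.47.

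Kcna10 rose by 2.15 in the apex, 1.14 in the middle and 0.27 in the base, and the change in the apex exceeded the mean of the others by 1.45 ± 0.19 (adjusted p = 0.0312). At P8 its signal was 8.78 and 9.43 in the apex and 7.67 and 7.87 in the base, against 6.78 and 7.13 in the apex and 7.24 and 7.76 in the base at P0, so that the apex was the higher end at P8 and the lower end at P0. Strip2 (a striatin-interacting protein) had 9.20 and 9.54 at P8 against 6.84 and 6.69 at P0 in the apex, where it rose by 2.61, with 1.45 in the middle and 0.16 in the base. Fcrlb (an Fc receptor-like protein) had 10.19 and 10.36 at P8 against 7.78 and 7.33 at P0 in the apex and rose by 2.72, with 1.30 in the middle and 0.08 in the base. Atp6v0a4 rose in all 3 turns, by 2.50 in the apex, 1.29 in the middle and 0.85 in the base, and its P0 signal was 6.22 and 6.57 in the apex and 7.99 and 8.88 in the base. Rbm24 rose by 1.09 in the apex, with 0.31 in the middle and −0.19 in the base.

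**Figure D4:**
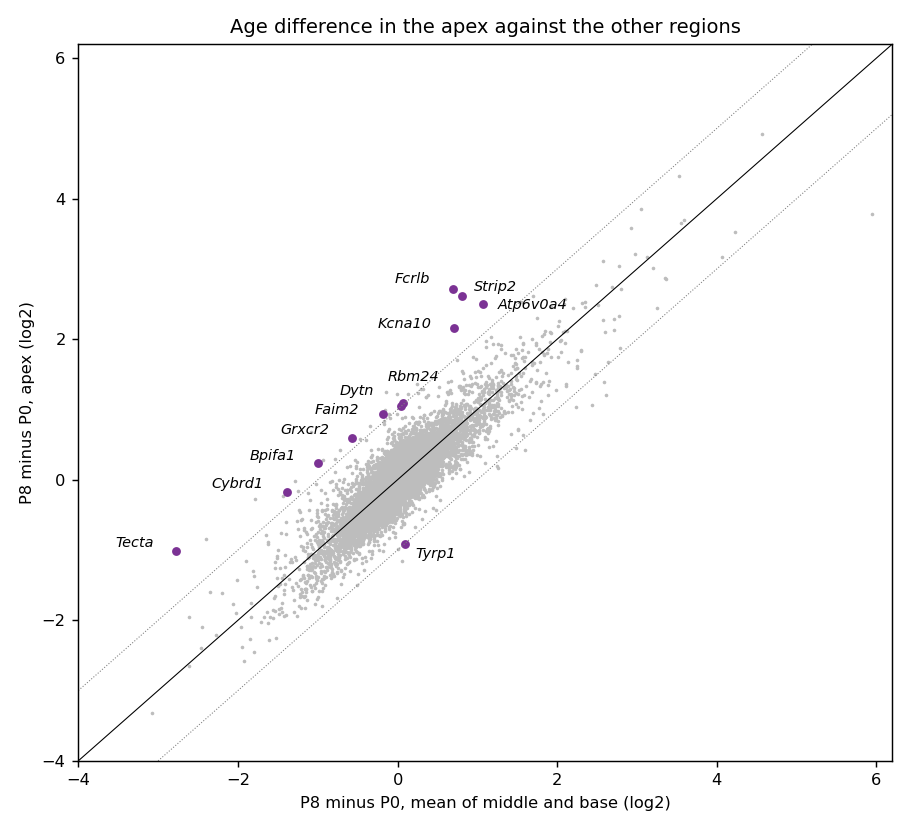
Log2 difference of P8 minus P0 in the apex (y axis) against the mean difference of middle and base (x axis) for 16306 tested genes. The solid line marks equal change, the dotted lines a 2-fold difference from it, and purple points are the 12 genes whose change differed. Tecta lies at −1.02 in the apex and Kcna10 at 2.15, both above the upper dotted line.

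The other 6 genes had smaller or opposing changes. Grxcr2, a protein needed for stereocilia growth, differed by 0.60 in the apex, −0.16 in the middle and −0.98 in the base, and Faim2, an inhibitor of Fas-mediated cell death, by 0.93 in the apex, which was under 2-fold. Dytn (dystrotelin) rose by 1.05 in the apex. Cybrd1, a ferric reductase, changed by −0.17 in the apex against −1.17 in the middle and −1.60 in the base. Tyrp1 was high on the 2 P0 apex arrays only, at 6.59 and 6.69, and lay between 5.63 and 6.10 on the other 10. Bpifa1, a secreted protein of airway epithelium, was high on the P0 middle arrays (7.41 and 7.84) and between 5.56 and 6.05 elsewhere, so that its value rests on the middle turn. Only Tecta was called in 20 of 21 alternative settings. The other 11 were called in 4 to 14, none of the 12 was called without the set block. With either P0 base, P0 middle, P8 base, P8 middle or P8 apex of the second set left out, Tecta alone was called.

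**Figure D5:**
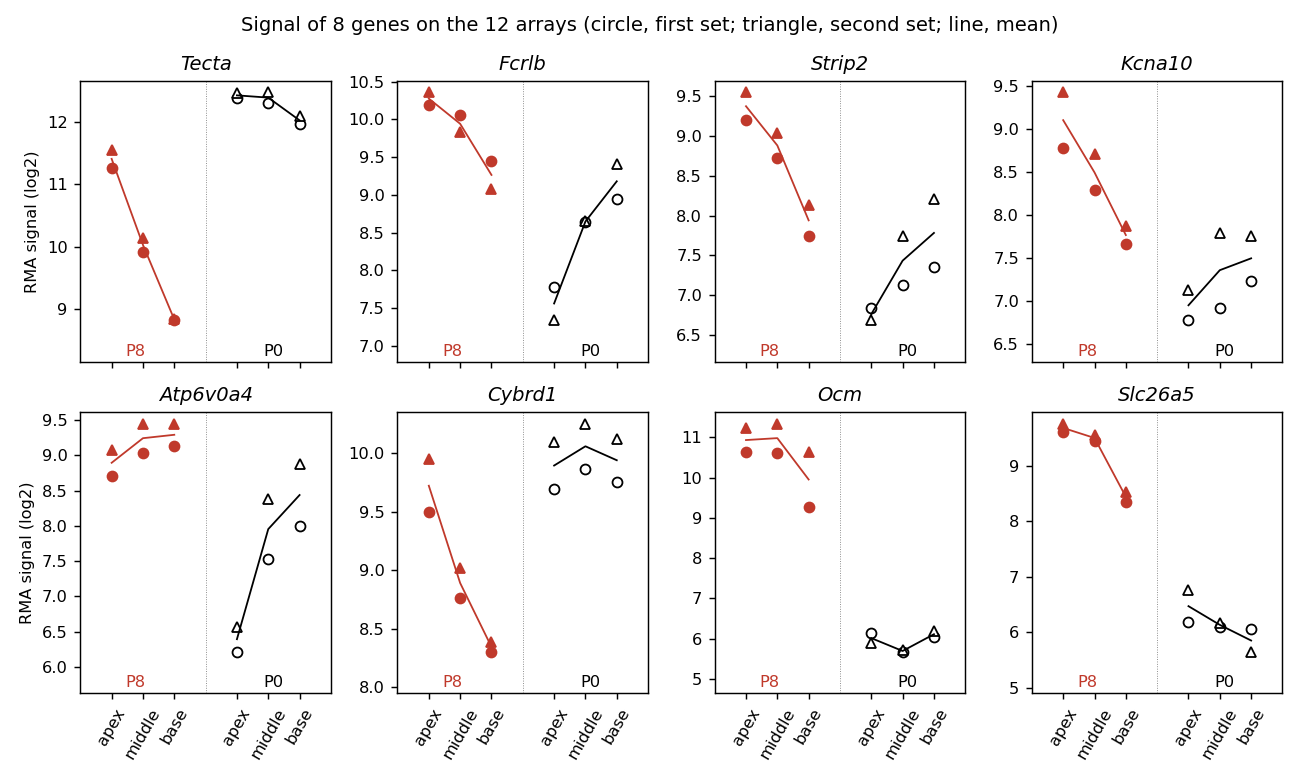
Log2 signal of 8 genes on the 12 arrays, by turn, with P8 in red on the left and P0 in black on the right. Circles are the first dissection set, triangles the second and lines the mean. Tecta at P8 descends from the apex to the base while its P0 arrays lie between 11.96 and 12.47, and Ocm is near log2 6 on all P0 arrays.

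For the mitosis group the fall in the apex was larger than in both other turns in 30 of 32 genes, and for DNA replication in 22 of 24, beside 42.1% of all tested genes whose apical difference was the lowest of the 3. Bub1 fell by at least 2.28 in the apex and at least 1.73 in the base, and by 1.49 in the middle. Of the ribbon synapse genes 10 of 11 and of the hair bundle genes 22 of 30 had their highest difference in the apex, beside 32.7% of all tested genes. Otof differed by 0.87 in the apex, 0.16 in the middle and −0.04 in the base, and Ptprq by 0.99 in the apex, 0.12 in the middle and −0.44 in the base. Ocm rose by at least 4.92 in the apex, at least 5.28 in the middle and 3.84 in the base. Its P0 signal was near log2 6 in every turn, so apex and middle cannot be ranked by their rises. At P8 its mean was 10.93 in the apex, 10.98 in the middle and 9.95 in the base. None of the mitosis, DNA replication or ribbon synapse genes differed between the turns in its change by the test of single genes, and of the hair bundle genes Grxcr2 alone did. This holds for the main fit, which did not pair the pieces by pool.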

How the data were processed

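The authors scanned the Affymetrix Mouse Gene 1.0 ST arrays of the 12 pools and normalised them by robust multiarray averaging (RMA), and the deposited values are log2 signals. Whether both dissection sets went through 1 run is not given in the sources used here. RMA gives all arrays a like distribution (medians 7.21 to 7.29), so a shift of all RNA with age would not be seen, and it compresses differences near background.

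Of 35556 entries, the 21789 with 1 gene symbol were used (1621 have several, 12146 none), with that of the highest 12-array mean for each gene. Of the tested genes 16253 were matched by Entrez ID to GRCm38.p6. A linear model with the 6 groups and the dissection set as a block was fitted to all 12 arrays with limma 3.58.1 in R 4.3.3 (residual df 5, Benjamini-Hochberg adjustment over all tested genes) and tested on simulated data. Whether both ages of a set were dissected at the same time is not given in the sources used here. The block therefore rests on the data. Deviations of same-set arrays from their group means correlated by 0.54 to 0.92 over 15 pairs of groups. The highest was between pieces of the same animals, P8 apex with P8 middle. Between the ages, which the block pairs, the values ran from 0.54, for P8 apex with P0 apex, to 0.75. The age change in the apex was tested against the mean of base and middle in the same fit. This comparison lies within pools, and the block for set does not pair the pieces of a pool. The fit with the pool as a fixed block does and is given among the alternatives.

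Named genes are the 15 largest rises and the 15 largest falls that moved alike in both sets, up to 6 members with the largest differences from each of 39 lists, further members whose role a sentence needed, and the genes whose age change differed between the turns. The members and lists were chosen with earlier results of these data known. Alternatives covered the block, the arrays fitted, the filter, the fold, the normalisation, the choice of entry, the moderation and each array left out in turn.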

Additional observations from a re-analysis of the deposited data

Results flagged for a closer look

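The change with age differed between the apex and the mean of the other turns, by the interaction test in limma, in 12 genes. The excess of the apical log2 change was 2.03 ± 0.24 for Fcrlb, 1.81 ± 0.24 for Strip2, 1.76 ± 0.14 for Tecta, 1.45 ± 0.19 for Kcna10, 1.43 ± 0.20 for Atp6v0a4, 1.24 ± 0.18 for Bpifa1, 1.21 ± 0.15 for Cybrd1, 1.16 ± 0.17 for Grxcr2, 1.11 ± 0.17 for Faim2, 1.03 ± 0.13 for Rbm24, 1.0 ± 0.13 for Dytn and −1.01 ± 0.15 for Tyrp1 (SE). The adjusted p was 0.00117 for Tecta and between 0.0275 and 0.0459 for the other 11. Fcrlb was called in 14 of 21 alternative settings, Cybrd1 in 12, Strip2 and Kcna10 in 11, Rbm24 in 10, Atp6v0a4, Grxcr2 and Dytn in 9, Bpifa1 and Faim2 in 8 and Tyrp1 in 4 of 20.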

How the results depend on the processing

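With 2 arrays a group, calls near the thresholds moved with the settings, but no called gene of the apical comparison changed sign in any of them. The stable sign adds little support. Called genes had at least a 2-fold difference, and most settings leave the apical difference itself unchanged. Without the replicate block 253 genes were higher and 178 lower at P8, all 431 of them among the 649. Named genes that lost their calls there were Bex1, Nefm, Gap43, Ccnb2, Cdk1, Prim1, Lin28b, Scn3a, Kcnj13, Pcdh15, Gjc3, Cldn19, Kcnj10, Tyr and Slc45a2. The calls of Mitf, Met, Cldn6, Rgs5, Rspo2, Abi3bp, Tgfbi, Col4a4, Npnt, Col6a3, Sp7 and Cytl1 were lost too, besides Kcne1 and the miRNA entries given above. At a fold of 1.5 or more 976 were higher and 978 lower. The methods' t-test gave 230 higher and 157 lower unadjusted and 0 of each after Benjamini-Hochberg adjustment, with 1492 genes at an unadjusted p under 0.05 (5690 in limma). Centring each array on its median gave 450 higher and 223 lower, so that 66.9% of called genes were higher against 55.9% in the values as deposited. With each array left out in turn, 358 to 437 genes were higher and 225 to 451 lower, the most without the P8 apex array of the second set. Of the named genes, besides those in the report, the calls of Epha4 (−0.92), Kcnq1 (0.98), Cp (0.98), Tgfbi (−0.98), Lama2 (0.91), Sp7 (0.95), Scn3a (−0.93) and Dytn (0.99) were lost without the P8 apex array of the first set. Those of Tecta (−0.94), Lin28b (−0.92), Mir18 (−0.86), Sema3c (−0.93), Col24a1 (0.88), Rgs5 (0.90) and Cldn19 (1.37) were lost there too. Without the P0 apex array of the second set Mbp (0.96), Tyr (0.86), Klf9 (0.99), Lama2 (0.99), Pcdh15 (−0.99) and Scn3a (−0.996) lost theirs. Without the P8 apex array of the second set Mbp (0.96), Klf9 (0.90) and Grb10 (−0.90) did. Grb10 (−0.96), Epha4 (−0.97), Fbn2 (−0.98), Scn3a (−0.94), Mir18 (−0.93) and Tecta (−0.93) lost theirs with centred arrays, and Igf2bp1 (−0.97) and Mitf (0.70) with the mean of entries.

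Fewer calls of a difference between the turns held. The 11 more positive and 1 more negative became 0 and 0 without the replicate block (269 genes at an unadjusted p under 0.05), 23 and 4 with the pool as a random block and 28 and 7 with the pool as a fixed block. The negative call was 0 with no filter on low values, with a level of 7, after quantile normalisation and with centred arrays. Leaving out each array gave 1 to 11 more positive and 0 to 3 more negative, the 3 being Acan, Ibsp and Tnmd without the P0 apex array of the second set. Mir17 and Mir17hg, which were not called, changed sign without that array, and over the arrays left out Mir17 ranged between −0.44 and 0.043 and Mir17hg between −0.61 and 0.23. The cause of these shifts was not tested.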
